A study of Bos taurus with 24 samples.

Results

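The rows of 6 miRNAs were examined in bovine mammary gland: bta-miR-199a-5p, bta-miR-199a-3p, bta-miR-199b, bta-miR-199c, bta-miR-3604 and bta-miR-214, taken by their exact names from the 796 miRNA rows that both deposited tables list. Mammary biopsies had been taken from midlactation cows of the Holstein (HOLS) and Montbéliarde (MONT) breeds, and a small RNA library was made from each biopsy. Each of 5 HOLS and 6 MONT cows was sampled before feed restriction, on free access to the ration (CONT), and again at its end (REST), which gave 22 libraries and asked which miRNAs respond to a shortage of energy. The labels give the restriction as 6 days at 60% of the net energy for lactation, while the study's methods state another allowance. A further HOLS cow of the labels was not analysed here. The study took the biopsies on alternating rear glands of the udder, so period, order of sampling and gland cannot be told apart within a cow.

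A miRNA is a short RNA cut from a hairpin precursor, and either arm of the hairpin can give a mature strand that pairs with messenger RNAs through its seed and lowers their output. In vertebrates miR-199a and miR-214 are made together from a long noncoding RNA on the opposite strand of a dynamin gene, and they are known for high levels in fibroblasts and other mesenchymal cells and low levels in epithelium. The mammary gland has both, since connective tissue surrounds the secretory epithelium.

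The RefSeq annotation of the bovine assembly ARS-UCD2.0 was used for gene names and neighbours only, because the authors aligned to another build. There MIR199A-1 has MIR214 as its nearest miRNA gene, and both overlap DNM3, the gene of dynamin 3. MIR199A-2 overlaps DNM2 and MIR3604-1, whereas MIR199B overlaps DNM1 and MIR3604-2. MIR199C lies in another setting, overlapping the nucleoporin gene NUP88. No mature sequences were given with the references used here, so none is printed.

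All 6 miRNAs were counted in every library, with total counts per library from 6087865 to 18913916. miR-199a-3p had the most counts, from 4269 to 40265 per library, and was 58th of 796 by its mean normalised count. miR-3604 followed at 59th, miR-199a-5p at 85th and miR-199b at 87th, while miR-214 was 169th and miR-199c 228th. miR-199c was the scarcest, with 28 to 279 counts, and its values carry the largest counting error. All 6 passed the filter on low counts in each comparison. Normalised counts below are counts divided by a size factor per library. They compare a miRNA between libraries, and the order of miRNAs also holds their unequal ligation and counting.

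The rows of miR-199a-3p and miR-3604 appear to hold almost the same reads. In each of the 22 libraries miR-3604 had from 97.6% to 98.8% of the count of miR-199a-3p, a gap of 78 to 530 counts, and r of their log2 normalised counts was 0.99998. Among 38781 pairs formed by the 279 rows with at least 10 counts in every library, 8 pairs stayed within 5% of each other in all libraries. How reads that fit several miRNAs were assigned is not stated in the sources used here, so miR-3604 is not an independent measurement and is counted separately only as a row. No other pair among the 6 rows came close. miR-199c had 0.653 to 0.952 counts per 100 of miR-199a-3p, with r of 0.971, and whether it receives a small part of the same reads cannot be told from the counts. miR-199b, whose row name gives no arm, had between 0.636 and 1.45 times the count of miR-199a-5p. Over all pairs of the 6 rows, r across the 22 libraries ranged from 0.839 to 0.99998.

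In HOLS the 6 rows had fitted fold changes above 1 in REST, but none passed the test. The normalised counts of miR-199a-3p in CONT were 5620, 6054, 6966, 7155 and 7217, with a mean of 6603 ± 721 (SD, n = 5). In REST they were 6482, 8165, 8794, 8828 and 10854, with a mean of 8625 ± 1569 (SD, n = 5). The lowest REST library lay within the CONT range and the other 4 lay above it, and each of the 5 cows was higher in REST than in CONT. This tally depended on the scaling, since with library size only, added after the values were seen, cow 1165 was at -0.13 and cow 1155 at -0.02 on the log2 scale, which left 3 of 5 cows higher. The log2 fold change was 0.38 ± 0.15 (SE), a fold of 1.30, with an adjusted p of 0.183 (edgeR, quasi-likelihood test, Benjamini-Hochberg).

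The other arm, miR-199a-5p, had normalised counts of 1336, 1584, 1801, 2030 and 2166 in HOLS CONT. In REST they were 1923, 1998, 2086, 2427 and 2447, so the groups overlapped. The arm was higher in REST in 4 of 5 cows, and cow 9195 was nearly level at -0.05 on the log2 scale, while library size only gave 3 of 5. The log2 fold change was 0.28 ± 0.15 (SE), with an adjusted p of 0.304 by edgeR's quasi-likelihood test.

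miR-214, the neighbour of a miR-199a hairpin, had normalised counts of 116, 127, 152, 164 and 167 in HOLS CONT. Its REST values were 147, 176, 180, 192 and 210. Again 4 of the 5 REST values were above every CONT value, and all 5 cows were higher in REST, but only 3 of 5 with library size only, where cow 1165 was at -0.12 and cow 1155 at -0.02 on the log2 scale. The log2 fold change was 0.31 ± 0.16 (SE), with an adjusted p of 0.262 by edgeR's quasi-likelihood test.

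The values of miR-199b in HOLS were 1831, 1997, 2328, 2404 and 2535 in CONT and 2162, 2451, 2767, 2895 and 2896 in REST. Its log2 fold change was the smallest of the 6 rows, 0.24 ± 0.14 (SE), and 4 of 5 cows were higher in REST, or 2 of 5 with library size only. miR-199c had 36.7 to 60.5 normalised counts in CONT and 55.7 to 77.7 in REST, with a log2 fold change of 0.44 ± 0.18 (SE). That was the largest of the 6, on the fewest counts, and miR-3604 gave 0.39 ± 0.15 (SE), as its near-copy did. By edgeR's quasi-likelihood test the adjusted p was 0.307 for miR-199b, 0.187 for miR-199c and 0.179 for miR-3604.

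For the HOLS comparison as a whole, 2.41% of the 374 miRNAs tested passed an adjusted p of 0.05, and 0 of the 6 rows did. DESeq2 also called 0 of them, and 3 rows had an unadjusted p under 0.05 by edgeR. The median log2 fold change of the 6 rows was 0.35 and that of all miRNAs tested was 0.02. With the cow as a block, which pairs the libraries of an animal, 8.02% of the miRNAs tested were called higher in REST. Of the 6 rows only miR-3604 was then called, at an adjusted p of 0.0491 by edgeR's quasi-likelihood test. miR-199a-3p, which holds nearly the same reads, was at 0.0510 in the same test, so the call separates 2 rows that the counts do not. 

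**Figure D1:**
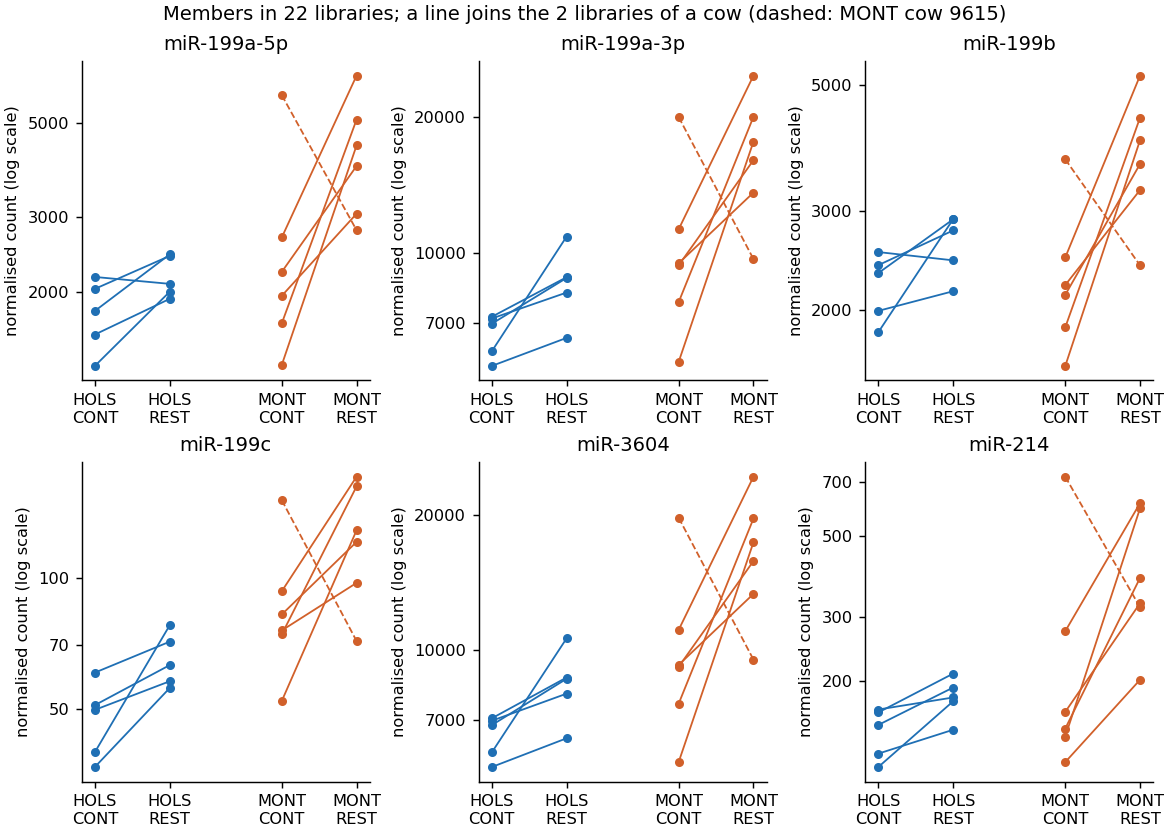
Normalised counts of the 6 rows in the 22 libraries on a log axis, with a line joining the CONT and REST libraries of each cow, HOLS in blue and MONT in orange. The lines rise in 5 of 6 MONT cows for every row, and the dashed line of cow 9615 falls in every panel.

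In MONT the same rows were higher in REST in 5 of 6 cows and lower in cow 9615, and none passed the test over all cows. This tally was the same with library size only. The CONT libraries held 5743 to 19945 normalised counts of miR-199a-3p, with a median of 9433, and the REST libraries 9681 to 24640, with a median of 16819. The highest CONT value and the lowest REST value both belonged to cow 9615. With all cows kept, the ranges overlapped for each of the 6 rows, and 1 of the 349 miRNAs tested lay wholly higher in REST. Leaving aside this cow, which held both extremes, CONT ended at 11278 and REST began at 13585. The share of all miRNAs with such a gap in the other 5 cows was not counted, so the gap is no result about this row. Over all 6 cows the log2 fold change was 0.68 ± 0.27 (SE), with an adjusted p of 0.314 by edgeR's quasi-likelihood test.

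miR-199a-5p ranged from 1344 to 5810 with a median of 2091 in MONT CONT, and from 2791 to 6462 with a median of 4190 in REST. miR-214 ranged from 120 to 725 with a median of 156 in CONT, and from 202 to 614 with a median of 355 in REST. For both, the CONT library of cow 9615 stood far above the other 5, which reached 2685 and 274. The log2 fold changes over all cows were 0.73 ± 0.31 (SE) and 0.66 ± 0.43 (SE).

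miR-199b spanned 1597 to 3694 in CONT, with a median of 2174, and 2401 to 5188 in REST, with a median of 3808. Its log2 fold change was 0.70 ± 0.21 (SE), with the lowest unadjusted p of the 6 rows, and it ranked 3rd of the 349 miRNAs tested in MONT. miR-199c gave a log2 fold change of 0.51 ± 0.26 (SE) and miR-3604 one of 0.68 ± 0.27 (SE). Adjusted p over the 6 rows lay between 0.300 and 0.448 by edgeR's quasi-likelihood test.

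In this comparison the share called was 0% of 349 miRNAs, and 0 of the 6 rows were called by either edgeR or DESeq2, while 4 rows had an unadjusted p under 0.05 by edgeR. The median log2 fold change of the 6 rows was 0.68, against -0.01 over all miRNAs tested. Cow 9615 decided the call. Without its 2 libraries, 7.26% of 358 miRNAs tested were called higher in REST and all 6 rows were among them. miR-214 then rose by 1.30 ± 0.34 (SE) on the log2 scale, a fold of 2.46, and miR-199a-5p by 1.19 ± 0.24 (SE), a fold of 2.28. miR-199a-3p rose by 1.05 ± 0.21 (SE), miR-3604 by 1.05 ± 0.21 (SE), miR-199b by 0.96 ± 0.17 (SE) and miR-199c by 0.82 ± 0.23 (SE). Their adjusted p lay between 0.0149 and 0.0391 by edgeR's quasi-likelihood test. With the cow also added as a block, 18.2% of the miRNAs tested were called higher in REST, again with all 6 rows. Leaving out any other MONT cow instead gave 0 calls over all miRNAs tested. Cow 9615 was singled out because it ran opposite in these same rows, so the adjusted p without it are descriptive only. Nothing in the labels sets cow 9615 apart, and its libraries stay in every other value unless stated.

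**Figure D2:**
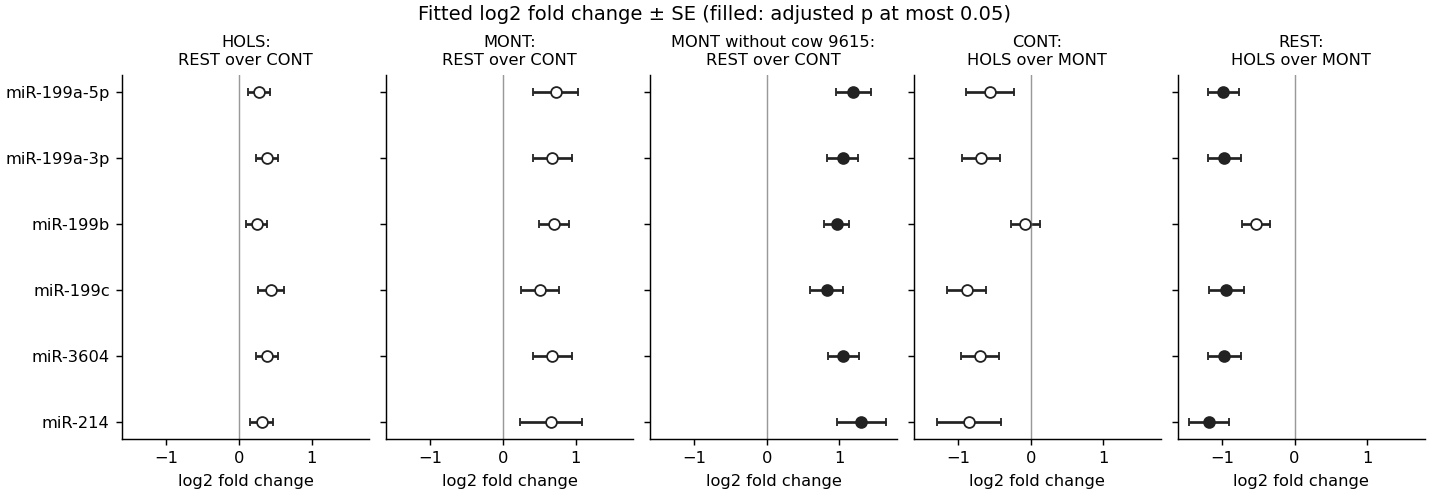
Fitted log2 fold change of each row with its SE, by comparison, as filled points where the adjusted p was at most 0.05. The rows lie right of 0 in both breeds, pass the threshold in MONT only when cow 9615 is left out, and lie left of 0, on the side of MONT, between the breeds, where 5 of 6 pass in REST.

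The change of each cow shows how far the rows moved together. For miR-199a-3p the log2 changes from CONT to REST were 0.19, 0.21, 0.29, 0.34 and 0.84 in the 5 HOLS cows. In MONT they were 0.52, 0.77, 1.13, 1.36 and 1.62, and -1.04 in cow 9615. For miR-214 they were 0.11, 0.22, 0.34, 0.35 and 0.59 in HOLS. In MONT they were 0.74, 0.98, 1.16, 1.36 and 2.07, and -1.19 in cow 9615. The 5 other MONT cows lay above all HOLS cows for miR-214, while for miR-199a-3p the HOLS cow 2182 exceeded 2 of them. Over the 11 cows the changes of miR-214 and miR-199a-3p had a Pearson r of 0.980 and a Spearman rho of 0.964, each with a permutation p of 1e-05, the smallest that 100000 permutations can give. Without the 2 cows farthest from the median change of miR-199a-3p, 9615 and 2614, r was 0.946 over 9 cows, with an exact permutation p of 0.000284 (two-sided). In the 6 MONT cows alone r was 0.989, with an exact permutation p of 0.00139, and none was computed over the 5 HOLS cows alone. Both miRNAs of a cow were divided by the same 2 size factors, and r was also 0.980 with library size only. No r of changes was computed with miRNAs outside the 6 rows, so the relation was not shown to be particular to this pair.

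**Figure D3:**
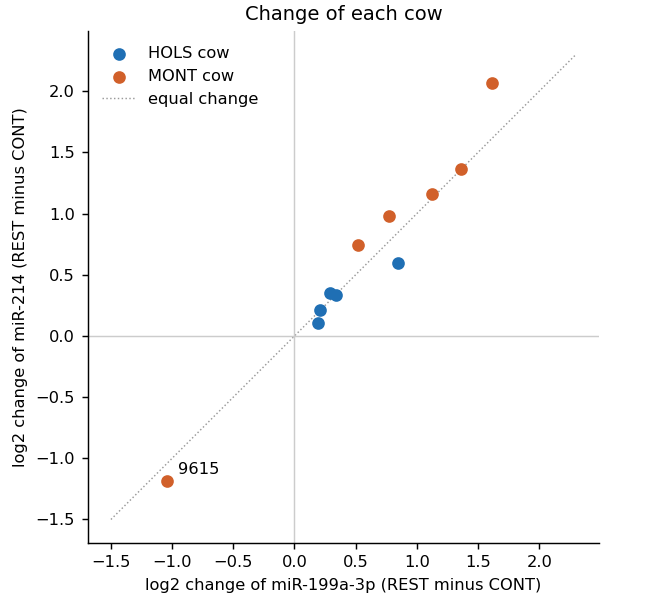
Log2 change from CONT to REST of miR-214 against that of miR-199a-3p, 1 point per cow, with a dotted line of equal change. The 11 points follow the line from -1.04 and -1.19 in cow 9615 to 1.62 and 2.07 in cow 2614.

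A breed by period interaction, fitted to the 22 libraries, asked whether the response was unequal in the breeds. The share called was 0% of 388 miRNAs, and 0 of the 6 rows were called by edgeR or by DESeq2, with 0 rows at an unadjusted p under 0.05 by edgeR. The change in MONT minus that in HOLS was 0.50 ± 0.27 (SE) for miR-199b, 0.47 ± 0.40 (SE) for miR-199a-5p, 0.37 ± 0.53 (SE) for miR-214 and 0.33 ± 0.35 (SE) for miR-199a-3p, on the log2 scale. The approximate 95% interval for miR-199a-3p, from -0.35 to 1.01, includes both no difference and a MONT change larger by 1 on the log2 scale, so the breeds were not shown to respond alike either. Without cow 9615 the difference for miR-199a-3p was 0.74 ± 0.26 (SE), and the adjusted p was 0.391 by edgeR's quasi-likelihood test. With cow 9615 left out and the cow as a block, a combination added after the values were seen, 4.12% of the miRNAs tested were called with a larger rise in MONT. These included 5 of the 6 rows, all but miR-199c, with adjusted p between 0.0385 and 0.0389 by edgeR's quasi-likelihood test. Since the cow was singled out by its values in these rows, these adjusted p are descriptive only.

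Before restriction, levels of the 6 rows were not shown to differ between the breeds. Of the 360 miRNAs tested in CONT, 0.556% were called and 0 of the 6 rows, and 3 rows had an unadjusted p under 0.05. DESeq2 called 1 row, miR-199c, and 3.06% of the miRNAs tested higher in MONT. The log2 fold change of HOLS over MONT was -0.88 ± 0.27 (SE) for miR-199c, -0.85 ± 0.44 (SE) for miR-214, -0.69 ± 0.26 (SE) for miR-199a-3p, -0.55 ± 0.33 (SE) for miR-199a-5p and -0.07 ± 0.20 (SE) for miR-199b. For miR-214 and miR-199a-5p much of this rested on a single library. Without cow 9615 the value of miR-214 was -0.23 ± 0.24 (SE) and that of miR-199a-5p -0.15 ± 0.20 (SE). miR-199a-3p and miR-3604 were then both at -0.41. miR-199c stayed at -0.66 ± 0.22 (SE), with an adjusted p of 0.146 by edgeR's quasi-likelihood test. Without that cow 3 rows again had an unadjusted p under 0.05 by edgeR.

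At the end of restriction MONT had about 2 times the level of HOLS for most of these rows. Of the 378 miRNAs tested, 9.79% were called higher in MONT, and 5 of the 6 rows were called, all in that direction. The log2 fold change of HOLS over MONT was -1.17 ± 0.28 (SE) for miR-214, -0.98 ± 0.21 (SE) for miR-199a-5p, -0.97 ± 0.23 (SE) for both miR-199a-3p and miR-3604, and -0.94 ± 0.24 (SE) for miR-199c. Their adjusted p lay between 0.0115 and 0.0221 by edgeR's quasi-likelihood test. miR-199b had a log2 fold change of -0.53 ± 0.19 (SE) and did not pass, at an adjusted p of 0.0755. The median over the 6 rows was -0.97, against -0.03 for all miRNAs tested. The study reported a lower share of clean reads and more adapter reads in MONT libraries than in HOLS libraries. It names the lower library quality as a possible reason for finding no changed miRNA in MONT. Breed and library quality therefore cannot be told apart in the comparisons between breeds or in the interaction.

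By library, the REST values of miR-199a-5p ended at 2447 in HOLS and began at 2791 in MONT. This complete separation was found for miR-199a-5p alone among the 6 rows, and for 4.76% of the miRNAs tested in the same direction. miR-214 overlapped by the lowest MONT library, 202 against a HOLS maximum of 210, and miR-199a-3p by the MONT minimum of 9681 against a HOLS maximum of 10854. Without cow 9615, whose REST library was the lowest of MONT for miR-199a-3p and miR-199a-5p, all 6 rows were called, with 11.9% of the miRNAs tested called higher in MONT. DESeq2 also called all 6, with 12.7% called in that direction. Without HOLS cow 1165, 4 rows were called, with 6.28% called in that direction, and miR-199c was at an adjusted p of 0.0505 by edgeR's quasi-likelihood test. The breed comparisons in CONT and REST use different libraries of the same cows, and the calls in REST alone do not show that the breeds differ more after restriction, which is what the interaction tests.

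Ordered by group mean, miR-199a-3p was at 6603 in HOLS CONT, 8625 in HOLS REST, 10603 ± 4941 (SD, n = 6) in MONT CONT and 16922 ± 5173 (SD, n = 6) in MONT REST. miR-199a-5p, miR-199c, miR-3604 and miR-214 had the same order of the 4 group means. For miR-214 the means were 145 ± 22.7 and 181 ± 23.0 (SD, n = 5) in HOLS, and 262 ± 233 and 406 ± 164 (SD, n = 6) in MONT. Ranges of neighbouring groups overlapped for each of these rows, the period differences within a breed were not called over all cows, and HOLS REST against MONT CONT was not tested. For miR-199b HOLS REST, at 2634 ± 320 (SD, n = 5), came above MONT CONT, at 2331 ± 733 (SD, n = 6). For miR-214 and miR-199a-5p the MONT CONT mean included the outlying library of cow 9615. That library held 725 and 5810, while the other MONT cows had 120 to 274 and 1344 to 2685 in CONT. By median miR-214 was higher in HOLS REST, at 180, than in MONT CONT, at 156. The medians of miR-199a-5p in these groups were nearly level, at 2086 and 2091.

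Ratios within a library need no scaling and show whether the rows moved as one. The share of miR-199a-3p among the counts of miR-199a-3p and miR-199a-5p was 76.9% to 84.5%. It averaged 78.8% ± 1.95 (SD, n = 5) in HOLS CONT, 79.6% ± 3.14 (SD, n = 5) in HOLS REST, 80.9% ± 1.88 (SD, n = 6) in MONT CONT and 79.7% ± 1.32 (SD, n = 6) in MONT REST. The share was lower in REST in 5 of 6 MONT cows, by 1.14 percentage points on average. Paired within cow, an exact sign-flip test gave p = 0.0625 (two-sided, unadjusted). With the pairing ignored, the exact permutation p was 0.249 (two-sided; adjusted p = 0.747 over 12 ratio comparisons). Thus the 2 rows were not shown to shift against each other by either test. MIR3604-1 overlaps MIR199A-2 and MIR3604-2 overlaps MIR199B, and miR-3604 holds nearly the reads of miR-199a-3p. Hence the miR-199a-3p row may also hold reads of the MIR199B hairpin, which was not tested. The miR-199b row was not in the sum, so the share may not be that of the miR-199a arms alone.

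miR-214 had from 1.27 to 3.64 counts per 100 of miR-199a-3p. The log2 ratio was -5.52 ± 0.11 and -5.56 ± 0.22 (SD, n = 5) in HOLS CONT and REST, and -5.56 ± 0.52 and -5.42 ± 0.47 (SD, n = 6) in MONT. None of the 4 comparisons passed an exact permutation test (two-sided p from 0.550 to 0.838). The spread between cows was wider in MONT, where cow 1640 held 1.27 and 1.48 per 100 and cow 9615 held 3.64 and 3.29, in CONT and REST. Hence the ratio varied more from cow to cow than between the periods of a cow.

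miR-199b stood apart from miR-199a-5p by breed, a comparison added after the values were seen. All 10 HOLS libraries had more counts of miR-199b than of miR-199a-5p, with ratios from 1.12 to 1.45. In MONT the ratio lay between 0.636 and 1.19 in CONT and between 0.803 and 1.07 in REST. In REST the log2 ratio was 0.27 ± 0.15 (SD, n = 5) in HOLS and -0.16 ± 0.14 (SD, n = 6) in MONT, with no overlap between the breeds. The exact permutation p was 0.00433 (two-sided), the smallest that 5 against 6 libraries allow, and 0.0519 after adjustment over the 12 comparisons. In CONT the ratios were 0.33 ± 0.09 (SD, n = 5) and -0.04 ± 0.33 (SD, n = 6), with an exact permutation p of 0.0216 (two-sided; adjusted p = 0.130). Neither breed difference passed after adjustment, and the ratio is the counterpart of the smaller breed difference of miR-199b given above.

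**Figure D4:**
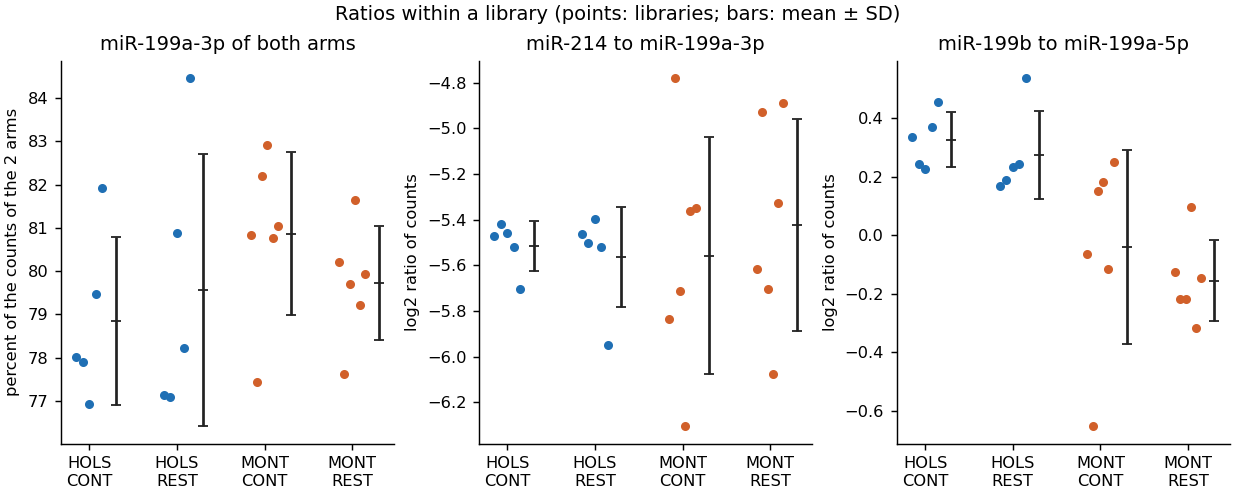
Share of miR-199a-3p among the counts of miR-199a-3p and miR-199a-5p, and log2 ratios of miR-214 to miR-199a-3p and of miR-199b to miR-199a-5p. Each point is 1 library, with the mean and SD of each group beside the points. HOLS lies above 0 for miR-199b in all 10 libraries, while the ratios of miR-214 spread most in MONT, from 1.27 to 3.64 per 100 counts.

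Among the 359 other miRNAs with a mean normalised count of at least 10, those whose levels followed the family most closely were named by the highest Pearson r over the 22 libraries, which come from 11 cows and share size factors. For miR-199a-5p they were miR-125b (r = 0.958), miR-222 (0.948), the predicted miRNA chr21_21957_mature (0.939), miR-99a-5p (0.936) and miR-218 (0.925). For miR-199a-3p they were miR-125b (0.956), miR-504 (0.948), miR-1247-5p (0.937), chr21_21957_mature (0.937) and miR-222 (0.935). For miR-214 they were miR-218 (0.960), miR-127 (0.908), miR-222 (0.905), miR-221 (0.899) and miR-7863 (0.898). After the mean of each breed and period was subtracted, these values lay between 0.813 and 0.937, so the likeness was also present within groups. miR-222 was the only one named for all 3. Over the same libraries miR-214 had r of 0.939 with miR-199a-5p and 0.892 with miR-199a-3p. The last is below the r of each miRNA named for miR-214, and the first is below that of miR-218 alone.

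Marker miRNAs of other cell types were read beside the members, since in a bulk biopsy fewer cells of a type and less RNA per cell cannot be told apart. No cell type was separated, so the known tie of miR-199 and miR-214 to stroma was not tested here. A list of 18 miRNAs known for high levels in fibroblasts and smooth muscle, such as miR-143, miR-145 and miR-125b, had all 18 rows above 0 in every group. Their summed normalised counts spanned 2962480 to 4310160 in HOLS CONT, 4154000 to 5298430 in HOLS REST, 3243650 to 6321950 in MONT CONT and 3660200 to 6254940 in MONT REST. These sums weigh the most abundant rows most, and the study reported miR-143 as its most abundant miRNA. The median log2 fold change of the list was 0.29 in HOLS and 0.33 in MONT, with 0 of 18 called in either breed. With the cow as a block 6 of 18 were called higher in HOLS REST, against 8.02% of all miRNAs tested. In that fit miR-22-3p, at -0.28, and miR-335, at -0.04, lay below 0. Without cow 9615, 5 of 18 were called higher in MONT REST, against 7.26% of all miRNAs tested. These 5 were miR-379 at 1.11 ± 0.31 (SE), miR-125b at 0.96 ± 0.19 (SE), miR-100 at 0.84, miR-99a-5p at 0.73 and miR-497 at 0.49. In the same fit miR-143, at 0.27, and miR-145, at 0.13, were not called. There miR-152, at -0.20, and miR-22-3p, at -0.05, lay below 0. Between the breeds in REST 5 of 18 were called, all higher in MONT, against 9.79% of all miRNAs tested. They were miR-100, miR-379, miR-125b, miR-218 and miR-99a-5p, at -1.11, -1.03, -0.85, -0.74 and -0.62 on the log2 scale for HOLS over MONT. miR-143, known from smooth muscle, was not called, at -0.36 ± 0.19 (SE). Log2 fold changes of the list ran from -1.11 to 0.40, with a median of -0.26. The rows of miR-10b, miR-152, miR-145, miR-195, miR-21-5p and miR-424-5p went the other way, above 0, and none of them was called.

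Of 11 epithelial miRNAs, 10 had a row, all above 0, and their median had the opposite sign, -0.12 in HOLS and -0.34 in MONT, with 0 of 10 called. With the cow as a block miR-200b, miR-200c and miR-429, members of a family that keeps the epithelial state, were called lower in HOLS REST. Over all miRNAs, 31 of 374 tested were called lower in that fit. There miR-200a, at -0.14, was among the rows of the list not called. The rows of miR-205, miR-141 and miR-183 lay above 0, at 0.10, 0.007 and 0.001. Without cow 9615, 2 of 10 were called lower in MONT REST, against 20 of all 358 miRNAs tested. These were miR-200b, which fell by 0.88, and miR-200c, which fell by 1.24 on the log2 scale. The list median was then -0.59, while miR-205, miR-183 and miR-96 lay above 0, at 0.31, 0.10 and 0.05. Between the breeds in REST miR-141 was higher in HOLS by 1.06 ± 0.33 (SE) and miR-200c by 0.99 ± 0.30 (SE), while miR-205 was higher in MONT. Of the 378 miRNAs tested in that fit, 21 were called higher in HOLS and 37 higher in MONT. Summed over the list, the epithelial miRNAs held 450660 to 563819 normalised counts in HOLS CONT, 343666 to 683401 in HOLS REST, 231471 to 579079 in MONT CONT and 177143 to 418497 in MONT REST.

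Cow 9615 was opposite to the other MONT cows in both lists. Its median change was -0.41 over the mesenchymal list and 0.54 over the epithelial list, where the other 5 had 0.27 to 0.90 and -1.10 to -0.12. Its change over all 365 miRNAs compared had a median of -0.02. Deviations of its CONT and REST libraries from the means of their periods correlated negatively across miRNAs, with r of -0.202, while the other 10 cows had 0.0879 to 0.736. The part of cell makeup in the changes of miR-199 and miR-214 was not tested.

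**Figure D5:**
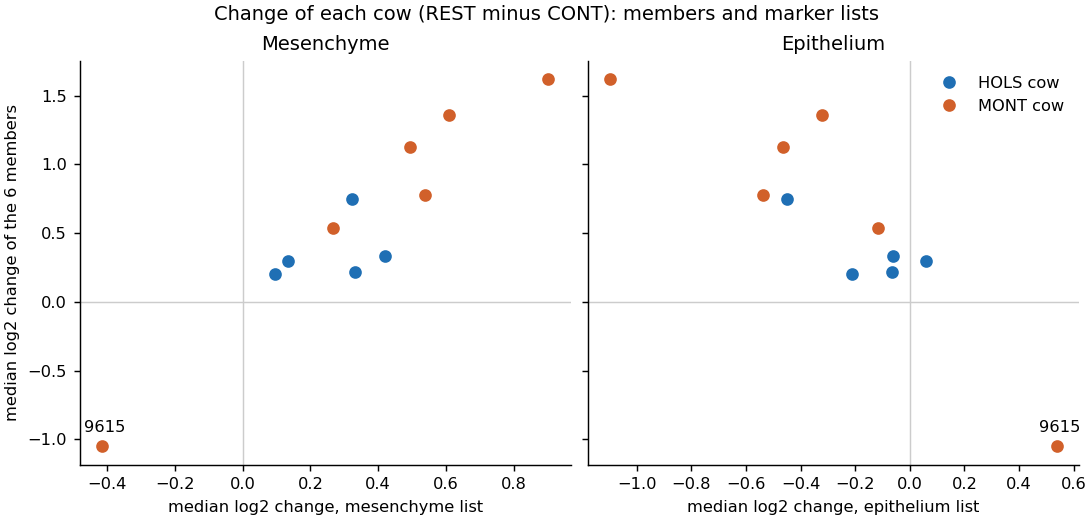
Median log2 change of the 6 rows in each cow against the median change of the mesenchymal list (left) and of the epithelial list (right). Cow 9615 sits at -0.41 and 0.54, opposite to the other MONT cows, and cow 2614, with the largest rise, sits at 0.90 and -1.10.

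The remaining lists had no present row at 0 in any group. The 2 arms of miR-126, of endothelium, had a median log2 fold change of 0.32 in HOLS and -0.08 in MONT. The 6 leukocyte miRNAs had medians of 0.27 and 0.13, and in cow 9615 their median change was -0.74. The 3 miRNAs of red blood cells had -0.09 and -0.75, and the 2 of skeletal muscle that were tested had 0.01 in HOLS and a value near 0 in MONT (3 of 4 had a row). None of these was called in either breed without a block. When the cow was added as a block, 1 endothelial, 3 leukocyte and 1 red blood cell miRNA were called higher in HOLS REST. The share over all miRNAs called higher in that fit was 8.02%. Between the breeds in REST miR-126-3p was called higher in HOLS, by 0.53 ± 0.15 (SE), while miR-126-5p, at 0.40 ± 0.17 (SE), was not called. Over all miRNAs, 21 of 378 tested were called higher in HOLS in that fit.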

How the data were processed

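Small RNA of 22 mammary biopsies was analysed from the tables deposited by the authors. The authors trimmed adapters, dropped reads with undetected bases or unsuitable length, used ncPRO-seq for quantification and annotation, and aligned the reads to the bovine genome and miRBase with miRDeep2, and the deposited counts are whole numbers without normalisation. The submitters' processing notes also name bcl2fastq 2.17.1.14 and DESeq2 1.18.1. The 22 columns of the authors' normalised counts and 12 columns of their means, fold changes and p-values were not used. 2 labelled samples, of a HOLS cow, have no column used here.

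Counts of both tables were joined by row name and divided by DESeq2 size factors over the 22 libraries. Log2 changes of a cow used a pseudocount of 1. Each comparison was fitted over all miRNAs with edgeR 4.0.16 in R 4.3.3, where the filter was filterByExpr (minimum count 10), scaling was by TMM, and quasi-likelihood F tests were adjusted by Benjamini-Hochberg at 0.05. SE was derived from the F statistic and is approximate, as are intervals (95%). Libraries were taken as replicates by cow, and 1 biopsy was taken per cow and period. Total counts were 7431936 to 18149037 in HOLS and 6087865 to 18913916 in MONT. PCR copies are not told apart, so low counts hold counting error at least.

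By the labels, 2 libraries with the same number are of 1 cow. Deviations from period means correlated with r of 0.259 to 0.494 in the 5 HOLS cows and 0.0879 to 0.736 in 5 MONT cows, and -0.202 in cow 9615. The study's methods name no block, and the blocked fit is given where it changes a call. Ratios were tested by exact permutation. The fits were tested on simulated data. Alternatives were DESeq2 1.42.0, limma-voom (limma 3.58.1), other scalings and filters, a threshold of 0.10, miR-3604 left out, the block and each cow left out. The members, marker lists and tests were chosen with earlier results of these data known. Likeness named the 5 highest r per miRNA.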

Additional observations from a re-analysis of the deposited data

Results flagged for a closer look

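In 48 sets of 5 or 6 values (levels, cow changes and ratios), 6 held a value far from the others, where chance flags about 1 in 20, or 2.4 here. The sets are not independent. In MONT CONT, cow 9615 had 5810 normalised counts of miR-199a-5p, with the other 5 cows at 1344 to 2685, and 725 of miR-214, with the others at 120 to 274.

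HOLS cow 2182 gave the other 4. Its log2 change from CONT to REST was 0.84 for miR-199a-3p, where the other 4 HOLS cows had 0.19 to 0.34, and 0.84 for miR-3604, which holds nearly the same reads. In its REST library the log2 ratio of miR-214 to miR-199a-3p was -5.95, below -5.52 to -5.40 in the others, and that of miR-199b to miR-199a-5p was 0.54, above 0.17 to 0.24. Without this cow the log2 fold changes in HOLS went from 0.38 to 0.23 for miR-199a-3p, 0.39 to 0.24 for miR-3604, 0.24 to 0.12 for miR-199b and 0.44 to 0.29 for miR-199c, and those of miR-199a-5p and miR-214 were 0.20 and 0.23.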

How the results depend on the processing

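The counts of rows called kept to within 1.5 times the reported ones except as follows. With the cow as the replicate block, 1 row was called in HOLS, while MONT and the interaction stayed at 0. Leaving out each cow gave 0 rows in HOLS, 0 to 6 in MONT (6 without cow 9615), 0 for the interaction, 0 for the breeds in CONT and 4 to 6 in REST. With cow 9615 left out and the block, added after the data were seen, 6 rows (140 of 358 miRNAs) were called in MONT and 5 (23 of 388) for the interaction. For the breeds in CONT, DESeq2 and the fit of all 22 libraries each called 1 row, miR-199c. No paired analysis was possible for the breeds because they are different cows. Over all miRNAs the calls in HOLS went from 9 to 61 with the block, 26 with DESeq2 and 3 without cow 1165 or 1155, those between breeds in CONT from 2 to 20 with DESeq2 and 29 with all 22 libraries, and those in REST from 58 to 89 with DESeq2. Library size alone moved the median of all miRNAs in HOLS from 0.02 to -0.15, and that of the 6 rows to 0.18, and between the breeds in REST from -0.03 to -0.15, with the 6 rows at -1.13.

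Fold changes that turned sign were near 0 and none was called. For miR-199c the interaction ran from -0.0605 to 0.450 over cows left out, below 0 without HOLS 8200 (-0.05), HOLS 1155 (-0.0605), MONT 1613 (-0.05) or MONT 2614 (-0.03). For miR-199b between the breeds in CONT it ran from -0.16 to 0.11, the last without cow 9615.

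For the share of the 3p arm, cows left out gave differences of -0.10 to 1.20 percentage points between periods in HOLS and -1.41 to -0.87 in MONT (exact permutation p = 0.0476 without cow 9615), and between breeds -2.79 to -1.54 in CONT (exact permutation p = 0.0333 without HOLS cow 2182 and 0.0317 without cow 9615) and -1.39 to 0.45 in REST. The log2 ratio of miR-214 to miR-199a-3p ran from -0.11 to 0.20 between breeds in CONT. That of miR-199b to miR-199a-5p ran from -0.223 to -0.0568 between periods in MONT (exact permutation p = 0.0476 without cow 9615) and from 0.25 to 0.43 between breeds in CONT (exact permutation p = 0.0524 without HOLS cow 2182). Pairing within cow gave an exact p of 0.0625 for the 3p share in MONT, left the side of the threshold of the other ratios between periods as it was, and the relation of the changes kept its side throughout. Depth limits miR-199c most, at 28 counts in 1 library.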
